A study of Mus musculus with 16 samples.

Results

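The peaks described here are the H3K9me3 ChIP-seq peaks assigned to 45 imprinted genes in crypts of the mouse small intestine, with and without Smarcad1. Smarcad1 is a SWI/SNF-like chromatin remodeler that was deleted in the intestinal epithelium through Vil-cre. Members were chosen by name: every row of the H3K9me3 peak table whose assigned gene was one of the 45, inside the gene or within the 5 kb around it, was taken. This gave 130 of 212313 peaks, at 25 of the 45 genes. The other 20 genes had no peak under their own name. The series compared wild-type (WT) with knockout (KO) crypts, and each of the marks H3K9me3 and H3K9me2 had 3 WT and 3 KO libraries and 1 input (sonicated chromatin without antibody) per genotype. All mice were C57BL/6 and, per the study's methods, males. KO mice carried a floxed Smarcad1 and a Vil1-cre transgene, in which the Villin promoter drives Cre in the gut epithelium, so non-epithelial cells of the crypt isolates kept the gene. The paper describes the H3K9me3 libraries of a genotype as biological replicates. The labels do not tie libraries to animals, so p-values measure the spread between these libraries.

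Imprinted genes are expressed from 1 parental allele. In each cluster a differentially methylated region (DMR), set in the egg or the sperm, carries DNA methylation on 1 allele, and that allele also carries H3K9me3. The zinc-finger proteins ZFP57 and ZFP445 bind the methylated allele, ZFP57 at a methylated TGCCGC, and bring KAP1 (TRIM28) and the H3K9 methyltransferase SETDB1. An inbred mouse has no sequence differences between the parental copies, so the values below are sums over both alleles.

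The H3K9me3 libraries held between 7068684 (KO1) and 11834045 (KO2) reads in peaks, and the inputs 8452186 and 8838386. A deposited value is the log2 read count of a peak after the authors matched the distributions of the 6 ChIP libraries, so a shift of the mark over all peaks could not be seen. Of all 212313 peaks, limma called 2.46% lower and 0.252% higher in KO at an adjusted p under 0.05.

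A peak was taken as a DMR peak if it lay within 1 kb of the start of a gene listed with a DMR at its promoter, or in the stretch upstream of H19, Rasgrf1 or Meg3, and was CpG-rich. CpG-rich meant either a CpG-island-like window of 500 bases or more CpG per 100 bases than 95% of all peaks. This rule was set after the values had been seen. It took 16 of the 130 peaks, and 4 more peaks that the deposited table assigned to another gene or to none. Together these 20 lay at the DMRs of Mest, Peg10/Sgce, Peg3/Usp29, Plagl1, Grb10, Impact, Nnat, Gnas, Nespas, Airn, Kcnq1ot1, Peg13, H19, Meg3, Snrpn/Snurf, Zrsr1 and Rasgrf1. The Nesp start in the Gnas cluster and the Meg3 start are methylated after fertilisation and not in the germ line. No such peak was called at the listed DMRs of Inpp5f, Nap1l5 or Mcts2, and the DMR of Cdh15, inside the gene, had no peak over it either.

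Beside the position and CpG content by which they were picked, the DMR peaks shared the ZFP57 motif. All 16 held at least 1 TGCCGC on either strand, as against 8.13% of all peaks and 60.9% of the CpG-island-like peaks outside imprinted genes. Of the 16, 10 held at least 3 TGCCGC within 300 bases, or 62.5%, as did 3 of the 4 under another annotation. The share was 1.36% among the CpG-island-like peaks elsewhere and 0.0598% among all peaks. Of 32851 RefSeq promoters of 300 bases (GRCm38), 0.234% held 3 or more. None of the other 114 peaks of imprinted genes did. The most in 300 bases was 5, at Mest, at the Nespas start and in the Dlk1-Meg3 interval. The Zrsr1 peak held none. DMR peaks were also longer (median 2700 bp) than all peaks (1350 bp) and the CpG-island-like peaks elsewhere (2100 bp). A longer peak has more room for a motif. TGCCGC also holds a CpG itself, and the DMR peaks had a median of 4.28 CpG per 100 bases. The CpG-island-like peaks elsewhere had 2.22 and all peaks 0.52. The shares above were not matched for length or CpG.

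The TGCCGC windows of 7 DMR peaks are printed to show the feature that the DMR peaks shared. The upstream stretches of H19, Rasgrf1 and Meg3 are methylated on the paternal allele, and the starts of Kcnq1ot1, Airn, Mest and Peg13 on the maternal one. Each is the plus strand of GRCm38, read 5′ to 3′, in lower case, with TGCCGC or its complement GCGGCA in capitals, and none overlaps an annotated UTR. Because UTRs were avoided and the windows trimmed around the motifs, they can hold fewer motifs than the densest 300 bases of the same peak, as at Mest and Peg13. The Dlk1-Meg3 interval window lies at chr12:109528276-109528464 and holds 5 TGCCGC and 24 CpG. The H19 upstream window lies at chr7:142580079-142580344 and holds 3 TGCCGC and 15 CpG. The Rasgrf1 upstream window lies at chr9:89879578-89879809 and holds 4 TGCCGC and 19 CpG. The Kcnq1ot1 start window lies at chr7:143295649-143295766 and holds 3 TGCCGC and 12 CpG. The Airn start window lies at chr17:12741752-12742044 and holds 3 TGCCGC and 28 CpG. The Mest start window lies at chr6:30737586-30737833 and holds 3 TGCCGC and 10 CpG. The Peg13 start window lies at chr15:72809687-72809967 and holds 3 TGCCGC and 19 CpG.
Dlk1-Meg3 interval: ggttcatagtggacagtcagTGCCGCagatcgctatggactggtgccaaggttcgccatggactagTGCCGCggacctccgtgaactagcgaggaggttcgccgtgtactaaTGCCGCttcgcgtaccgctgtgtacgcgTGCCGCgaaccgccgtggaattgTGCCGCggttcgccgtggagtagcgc
H19 upstream: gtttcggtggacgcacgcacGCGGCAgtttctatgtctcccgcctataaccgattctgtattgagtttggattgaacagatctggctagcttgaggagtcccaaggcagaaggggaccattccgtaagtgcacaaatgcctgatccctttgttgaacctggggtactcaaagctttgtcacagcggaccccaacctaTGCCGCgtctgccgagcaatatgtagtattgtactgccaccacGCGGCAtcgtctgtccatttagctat
Rasgrf1 upstream: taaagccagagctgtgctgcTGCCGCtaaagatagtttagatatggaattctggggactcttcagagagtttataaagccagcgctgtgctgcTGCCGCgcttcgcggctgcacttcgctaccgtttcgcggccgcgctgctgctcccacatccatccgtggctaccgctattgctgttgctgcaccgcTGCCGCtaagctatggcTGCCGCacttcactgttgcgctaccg
Kcnq1ot1 start: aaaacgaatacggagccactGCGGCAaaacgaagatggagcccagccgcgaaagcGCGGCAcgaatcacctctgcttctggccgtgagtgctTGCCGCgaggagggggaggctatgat
Airn start: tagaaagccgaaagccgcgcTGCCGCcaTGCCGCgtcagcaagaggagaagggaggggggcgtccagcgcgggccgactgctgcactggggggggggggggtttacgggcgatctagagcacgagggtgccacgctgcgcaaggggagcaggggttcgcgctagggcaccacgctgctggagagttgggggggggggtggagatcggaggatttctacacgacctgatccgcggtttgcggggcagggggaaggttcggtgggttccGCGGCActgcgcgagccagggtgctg
Mest start: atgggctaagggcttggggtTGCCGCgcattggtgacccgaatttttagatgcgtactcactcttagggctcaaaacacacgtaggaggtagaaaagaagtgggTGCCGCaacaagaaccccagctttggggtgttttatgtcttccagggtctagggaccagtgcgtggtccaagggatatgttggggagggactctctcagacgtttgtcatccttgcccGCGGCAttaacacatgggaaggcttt
Peg13 start: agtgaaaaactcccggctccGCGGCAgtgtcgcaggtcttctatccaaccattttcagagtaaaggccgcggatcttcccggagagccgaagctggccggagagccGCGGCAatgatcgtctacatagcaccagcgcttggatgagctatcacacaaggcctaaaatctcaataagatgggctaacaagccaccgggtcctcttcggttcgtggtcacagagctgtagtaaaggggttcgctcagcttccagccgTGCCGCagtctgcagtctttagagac

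The first question was how high ChIP over input was at these DMRs. ChIP over input is the log2 ratio of a library's reads in the peak to those in the input of its genotype, each as a share of reads in peaks with 1 read added. Because both are shares of reads in called peaks, a value of 0 is not the level of input but lies near the median of all peaks. It was described and not tested, since there was 1 input per genotype. The median over the 16 DMR peaks was 0.36 in WT and 0.15 in KO, and over the WT input 15 of the 16 were above 0 in WT. The median over all peaks was -0.08 in WT and -0.03 in KO, and that over the other 114 peaks of imprinted genes was -0.05 in WT. The DMR peaks did not stand above other CpG-rich chromatin, however: the 4988 CpG-island-like peaks outside imprinted genes had a median of 0.45 in WT and 0.25 in KO. The inputs also differed at these peaks. The KO input held more reads than the WT input at DMR peaks, by a median of 0.28 on the log2 scale against 0.00 over all peaks, and with the KO input in its place the WT median at DMR peaks was 0.06 and 10 of the 16 were above 0. It was then -0.06 over all peaks and 0.33 over the CpG-island-like peaks elsewhere. The values over input of WT and KO rest on different inputs and are given side by side only, and the comparison of KO with WT was made on the ChIP libraries alone.

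**Figure D1:**
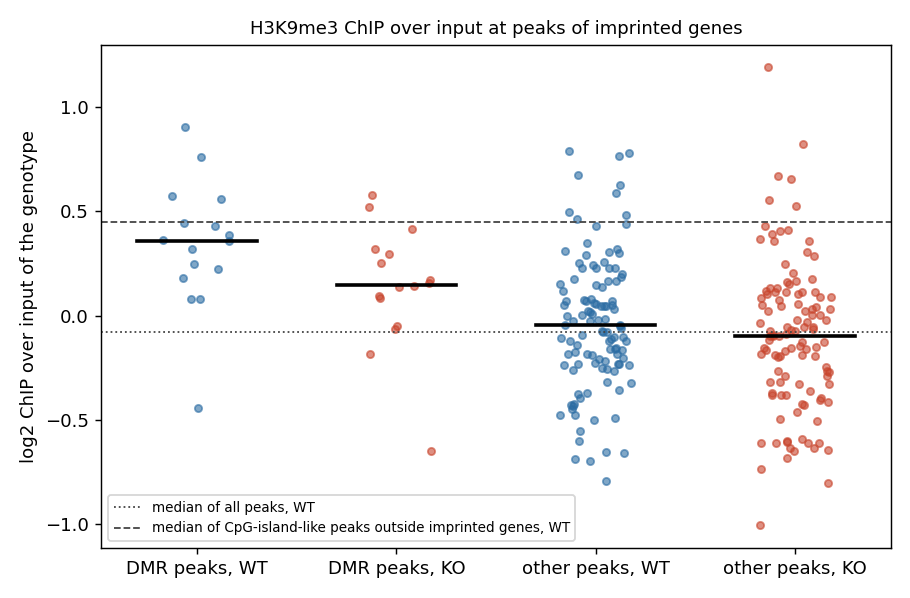
Each point is a peak of an imprinted gene, placed by its log2 H3K9me3 ChIP over the input of its genotype (mean of 3 libraries). Black bars are medians, which were 0.36 (WT) and 0.15 (KO) for the 16 DMR peaks, between the medians of all peaks (dotted) and of CpG-island-like peaks elsewhere (dashed).

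Mest, a paternally expressed hydrolase gene, had the highest value of the 130 peaks in WT over the WT input. Its peak at chr6:30734701-30740100 covers the start of Mest and reached 0.90 ± 0.25 (SD, n = 3) over input in WT, the 95.9th percentile of all peaks, and 0.58 ± 0.16 in KO. It was backed by 273, 180 and 200 reads in WT against 93 in the WT input. Over the KO input the WT value was 0.55, below those of a peak in the body of Plagl1 (0.76), a Mirg peak (0.65), called peaks of Trappc9 (0.61) and Rasgrf1 (0.59) and the longest Airn peak (0.56). In the Gnas cluster, the Nesp start (chr2:174283351-174287250) had 0.76 ± 0.17 in WT, and the peak over the Nespas start and the XLαs exon of Gnas (chr2:174294601-174301350) 0.36 ± 0.31. Over the KO input these WT values were 0.10 and 0.27. The inputs held 56 reads in WT and 85 in KO at the Nesp start. Nespas is an antisense RNA of this cluster. Exon 1A of Gnas, the gene of the stimulatory G protein subunit, had 0.43 ± 0.07 at chr2:174326851-174329100. At the start of Nnat, a neuronal proteolipid gene inside Blcap, the value was 0.56 ± 0.27 in WT and -0.07 ± 0.15 in KO. There the inputs differed, with 29 reads in WT and 44 in KO. A further peak of 900 bp beside it had 0.08 ± 0.50 in WT.

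Long noncoding RNAs that silence a cluster in cis start within the DMRs of Airn and Kcnq1ot1. The peak at the Airn start (chr17:12741751-12743700), in an intron of Igf2r and assigned to that gene, had 0.45 ± 0.15 over input in WT. The inputs held 34 reads in WT and 47 in KO there, and over the KO input the WT value was -0.075, so its direction turned with the input. The Kcnq1ot1 start (chr7:143294251-143296500), in an intron of Kcnq1, had 0.25 ± 0.35 in WT and 0.52 ± 0.12 in KO. Peg13, a noncoding RNA within Trappc9, had 0.35 ± 0.24 in WT at chr15:72807901-72811500, and 0.03 over the KO input. These peaks carry the name of the gene around them, which is why Kcnq1ot1 and Peg13 had no row of their own.

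Grb10, the gene of an adaptor that restrains insulin signalling, had 0.39 ± 0.12 over input in WT, and Impact, a translation regulator, 0.32 ± 0.02. Over the KO input these WT values were 0.03 and 0.32. Peg3, a zinc-finger gene that shares its start region with Usp29, had a peak of 11550 bp with 0.22 ± 0.07. The start shared by Peg10, a retrotransposon-derived gene, and Sgce, the gene of epsilon-sarcoglycan, had 0.08 ± 0.30. Plagl1, a zinc-finger transcription factor gene, was the one peak of the 16 below 0 over the WT input, with -0.45 ± 0.22, the 11.6th percentile, on 28, 19 and 21 reads in WT against 25 in the WT input. Over the KO input 6 of the 16 were below 0 in WT, namely both Nnat peaks and those of Plagl1, Airn, Peg10/Sgce and H19. The further Nnat peak was then the lowest, at -0.99, and Plagl1 had -0.51.

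The DMRs methylated in the sperm lie between genes. The H19 peak (chr7:142579951-142582200) is listed as downstream of H19 by position, but H19 is on the minus strand, so the peak lies 1808 bp upstream of its start, where the imprinting control region of H19 and Igf2 is. Its value over input was 0.18 ± 0.29 in WT. The Dlk1-Meg3 interval peak (chr12:109526101-109531200), assigned to AC107681.2, had 0.23 ± 0.20 in WT, and the Meg3 start (chr12:109536601-109543650) 0.57 ± 0.16. Upstream of Rasgrf1, a Ras exchange factor gene, a peak of 300 bp without any gene assigned (chr9:89879551-89879850) had 0.64 ± 0.24, on 15, 9 and 14 reads in WT against 6 in the WT input. With so few reads this value is imprecise. Of the maternally methylated DMRs whose peak is assigned elsewhere, Zrsr1 had 0.26 ± 0.08 and the Snrpn/Snurf start -0.18 ± 0.12 in WT, the latter negative like that of Plagl1.

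The second question was whether loss of Smarcad1 changed H3K9me3 at these DMRs. None of the 16 DMR peaks, nor of the 4 under another annotation, passed the test, and none of the 16 reached an unadjusted p under 0.05, against 10.8% of all peaks. Their log2 fold changes (KO minus WT) lay between -0.09 and 0.34, with a median of 0.07 against 0.03 over all peaks and with standard errors of 0.08 to 0.27. The lowest limma adjusted p was 0.481, at Kcnq1ot1. In edgeR and DESeq2 on reads recovered from the deposited values, 0 of the 16 were called as well. The rule did not take a CpG-island-like peak over the Igf2r start (chr17:12768901-12769950). Its change of -0.49 ± 0.25 (SE; limma adjusted p = 0.485) lay outside the range of the 16. Because a missed threshold does not show equality, the values are given by library.

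At Mest the WT libraries had log2 values of 7.90, 7.55 and 7.46 and the KO libraries 7.51, 7.76 and 7.76. At Kcnq1ot1 they were 6.40, 6.18 and 5.70 in WT and 6.28, 6.52 and 6.40 in KO. At H19 they were 6.34, 5.86 and 5.80 in WT and 5.76, 6.44 and 5.75 in KO. Genotypes overlapped at all 3, and H19 had 1 high library in each. Airn had 5.90, 5.58 and 5.77 in WT and 5.68, 6.09 and 6.08 in KO. Peg13 had 7.12, 6.62 and 6.85 in WT and 6.68, 7.08 and 6.998 in KO. Impact had 7.83, 7.85 and 7.82 in WT and 7.54, 7.85 and 7.95 in KO. Here too the groups overlapped, and the differences in means were under 2 standard errors. The Peg3 start was the one DMR peak of the 16 whose groups did not overlap, with 8.33, 8.32 and 8.26 in WT and 8.39, 8.36 and 8.42 in KO. Their difference was 0.08 ± 0.08 (SE), with a limma adjusted p of 0.818, and all 6 values lay close together. Over all peaks, KO lay wholly above WT at 7.3%.

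In the Gnas cluster, the Nesp start had 6.96, 6.61 and 6.77 in WT and 6.68, 7.09 and 6.70 in KO. Libraries at the Nespas start had 7.96, 7.37 and 7.64 in WT and 7.64, 7.98 and 7.86 in KO. Exon 1A of Gnas had 5.87, 5.72 and 5.84 in WT and 5.64, 5.92 and 5.99 in KO. KO libraries spanned the WT ones at exon 1A, and overlapped them at the other starts. At Grb10 the values were 6.33, 6.10 and 6.12 in WT and 6.28, 6.43 and 6.60 in KO. At Peg10/Sgce they were 6.48, 5.86 and 6.23 in WT and 6.19, 6.33 and 6.29 in KO. Grb10 had the larger difference, 0.25 ± 0.14 (SE), with KO1 inside the WT range. Nnat had 5.71, 5.86 and 5.34 in WT and 5.46, 5.71 and 5.78 in KO, and its further peak 4.66, 3.77 and 4.72 in WT and 4.81, 4.69 and 4.66 in KO. This further peak had the highest change of the 16, 0.34 ± 0.27, with WT2 apart from the other libraries. In the Dlk1-Meg3 interval the values were 7.42, 7.02 and 7.25 in WT and 6.94, 7.46 and 7.41 in KO. At the Meg3 start they were 7.89, 7.80 and 7.61 in WT and 7.54, 7.74 and 7.75 in KO. These differed by 0.04 ± 0.12 and -0.09 ± 0.10, with overlapping groups.

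The DMR peaks with few reads were among the most variable. Plagl1 had 4.66, 4.31 and 4.19 in WT and 4.18, 5.39 and 4.55 in KO, a difference of 0.32 ± 0.27 (SE). Upstream of Rasgrf1 the values were 3.74, 3.26 and 3.58 in WT and 2.58, 3.87 and 3.66 in KO, where KO1 was also the shallowest library. Zrsr1, an intronless gene inside Commd1, had 5.73, 5.58 and 5.60 in WT and 5.08, 5.73 and 5.21 in KO, with a difference of -0.29 ± 0.19. At the Snrpn/Snurf start, where the Prader-Willi imprinting centre lies, the peak (chr7:60002551-60004500, assigned to Gm38393) had 5.27, 5.48 and 5.27 in WT and 4.88, 5.42 and 5.61 in KO. At all 4 the groups overlapped.

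**Figure D2:**
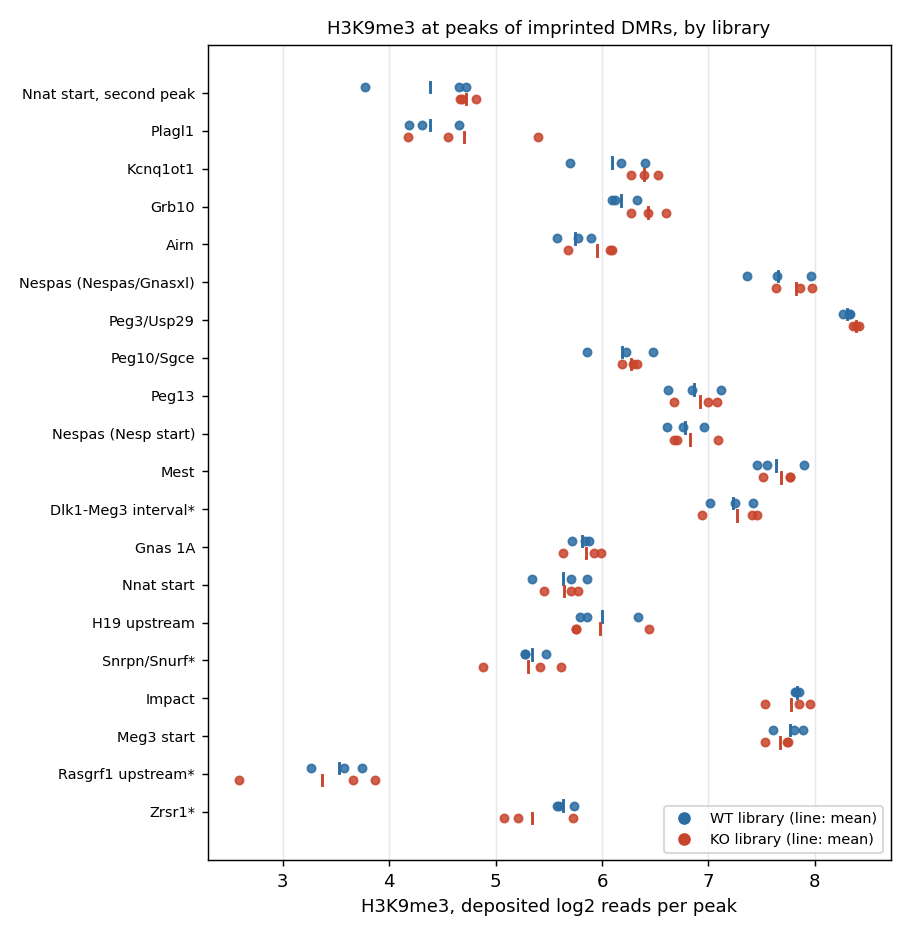
Deposited log2 H3K9me3 reads at the 20 DMR peaks, ordered by the change in KO. Points are libraries, vertical lines group means, and an asterisk marks the 4 peaks assigned to another gene or to none. WT and KO points overlap at all peaks but Peg3/Usp29, where all 6 lie between 8.26 and 8.42.

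Away from the DMRs, 5 of the 130 peaks were lower in KO and 0 were higher, or 5 of the 114 that were no DMR peak. A share of 5 in 130 is close to the 2.46% of all peaks called lower. The Peg3 domain held none of the 5, so outside it the share was larger, 5 of 61 peaks. At unadjusted p under 0.05, in either direction, there were 27 of 130, against 10.8% of all peaks. Of these 27, 10 lay in the Peg3 domain, where 57 of 69 changes were positive. The 5 lay in or beside Kcnq1, Igf2r, Rasgrf1 and Trappc9. They held 0.18 to 0.74 CpG per 100 bases, around the median of 0.52 over all peaks. Of these 5, the Igf2r peak held 1 TGCCGC and the others none.

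The largest fall was in an intron of Kcnq1, a potassium channel gene, at chr7:143227651-143229150, also within the body of the antisense RNA Kcnq1ot1. WT had 5.50, 5.58 and 5.86 and KO 5.36, 4.03 and 4.55, a log2 change of -0.999 ± 0.23 (SE; limma adjusted p = 0.00551). KO1 stood close to WT there, and the change was -1.36 without it. It was -0.69 without KO2 and -0.89 without WT3, and in both cases the call was lost (limma adjusted p = 0.118 and 0.0852). A further intronic Kcnq1 peak, at chr7:143392051-143393700 and outside Kcnq1ot1, had 5.73, 5.58 and 5.52 in WT and 4.57, 4.42 and 5.32 in KO, a change of -0.84 ± 0.21 (limma adjusted p = 0.0155). Their WT values over input were -0.23 and -0.18. The first turned with the input, since the inputs held 51 reads in WT and 32 in KO there and the WT value over the KO input was 0.36. The other was -0.21 over the KO input. The Kcnq1ot1 start between them had a change of 0.30 ± 0.15.

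The Igf2r peak (chr17:12679051-12680400) lay outside the gene, 2006 bp beyond its 3′ end when strand is taken into account. Igf2r encodes a receptor that clears IGF2. WT had 5.98, 5.94 and 6.01 and KO 5.26, 5.17 and 5.39, the tightest separation of the 5, with a change of -0.70 ± 0.17 (limma adjusted p = 0.0102). Its WT value was 0.63 ± 0.03 over the WT input and 0.06 over the KO input, which held 35 and 50 reads.

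Rasgrf1 had 6.73, 6.78 and 6.73 in WT and 6.04, 6.36 and 6.36 in KO at chr9:89925301-89928150, which overlaps an exon, a change of -0.49 ± 0.13 (limma adjusted p = 0.0268). Trappc9, a trafficking factor gene, had 5.85, 5.51 and 5.60 in WT and 4.66, 5.33 and 4.87 in KO at chr15:72721201-72722550, a change of -0.70 ± 0.20 (limma adjusted p = 0.042). No KO library reached a WT library at any of the 5, but 0 of them passed in DESeq2, whose adjusted p ranged from 0.0792 to 0.451 and which called 1.07% of all peaks lower. In edgeR, which called 2.77% lower, all 5 passed, with a peak of Inpp5f as the sixth. Leaving out WT1 or WT3 left 1 call, leaving out KO1 left 2 and leaving out WT2 or KO2 gave 3 lower peaks, of which 1 was not among the 5, and the calls that held differed with the library left out.

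**Figure D3:**
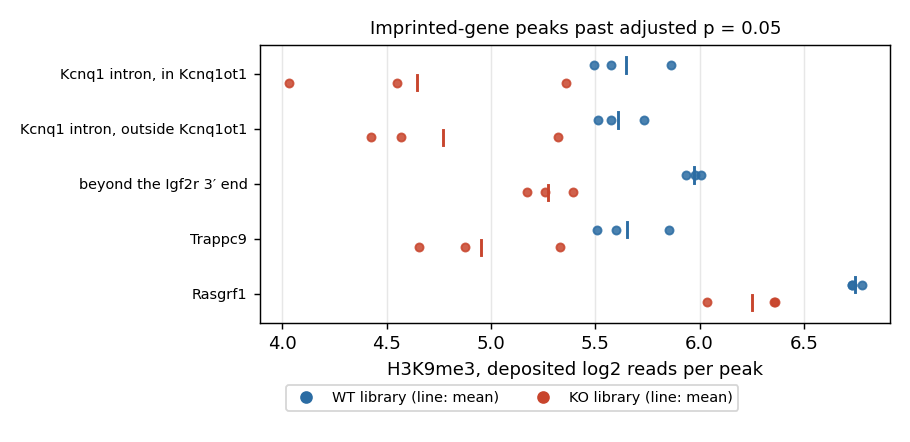
Deposited log2 H3K9me3 reads at the 5 peaks of imprinted genes past an adjusted p of 0.05. Points are libraries and lines group means; every KO point lies below every WT point of the same peak, with log2 changes of -0.999, -0.84, -0.70, -0.70 and -0.49 from top to bottom.

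By domain, the median changes differed in sign, though no domain was tested as a set and its peaks share libraries. The Igf2r domain had 8 peaks with a median change of -0.42. At 4 of these KO lay wholly below WT, against 8.21% of all peaks. Of these 4, 3 were in Airn, the noncoding RNA that represses Igf2r, with changes of -0.63, -0.69 and -0.18. The last, at chr17:12814501-12828300, was the longest of the 130 at 13800 bp and stood 0.77 ± 0.03 over input in WT and 0.36 in KO. The 5 peaks of Airn had limma adjusted p-values of 0.0978 and above. Inpp5f, an inositol phosphatase gene, had 2 peaks with KO below WT in every library, by -0.79 ± 0.26 (limma adjusted p = 0.101) and -0.48 ± 0.28. Both Rasgrf1 peaks and 3 of the 4 Kcnq1 peaks had KO wholly below WT as well.

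The Peg3 domain held 69 of the 130 peaks, 50 of them in Usp29, a ubiquitin protease gene, 13 in Zim1, a zinc-finger gene, and 6 in Peg3. The median change was 0.19, 57 of 69 were positive against 54.7% of all peaks, and KO lay wholly above WT at 17 of 69 against 7.3% of all peaks. None passed the test. The mean log2 value over the 69 peaks was 5.21, 5.17 and 5.08 in the WT libraries and 5.42, 5.18 and 5.46 in KO, so KO2 lay among the WT libraries. Without KO2, 2 Usp29 peaks were called higher, at chr7:6767851-6768600 (1.16) and chr7:6860551-6861750 (1.06). ChIP over input in the domain had medians of -0.12 in WT and -0.07 in KO, close to those of all peaks (-0.08 and -0.03). Over the KO input the WT median was -0.26, with 58 of the 69 peaks below 0, against -0.06 over all peaks. The lowest values over the WT input included 2 Usp29 peaks, of -0.70 and -0.69 in WT. Outside the Peg3 domain, the median change over the 61 other peaks was -0.01, whereas it was 0.09 over all 130.

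Snrpn, the gene of a splicing protein, had 17 peaks with changes from -0.61 to 0.86, 9 of them positive. In the Dlk1-Meg3 domain Rtl1, a retrotransposon-like gene, had 0.29 ± 0.15 and the 3 peaks of Mirg, a microRNA host, 0.24 to 0.60. The Mirg peak of 450 bp with 0.60 was the lowest of all 130 over input in WT (-0.79 ± 0.61) and the highest in KO (1.19). The inputs held 16 reads in WT and 5 in KO, and over the KO input the WT value was 0.65, so its direction turned with the input. Cdkn1c, a growth inhibitor gene, had a CpG-island-like peak with a WT value of 0.50 over the WT input and 0.12 over the KO input. Its change was 0.30 ± 0.16. Peg10 had a peak in its body with 0.48 ± 0.19 (limma adjusted p = 0.227). Grb10 had 5 peaks with changes between -0.53 and 0.42. The single peak of Kcnk9, a potassium channel gene, changed by -0.02 ± 0.27. The other high values over input were at single short peaks of Usp29 (600 bp, 0.79 ± 0.70) and Snrpn (300 bp, 0.78 ± 0.23), which had 6 and 5 reads in the WT input. Both turned with the input, since the KO input held 11 reads at each and the WT values over it were -0.053 and -0.285. Of the 20 genes without a peak of their own, Kcnq1ot1, Snurf, Zrsr1, Nnat and Peg13 had a DMR peak under another name. Ndn, Magel2, Mkrn3 and Commd1 were overlapped by a peak assigned elsewhere. Igf2, Phlda2, Ube3a, Copg2, Nap1l5, Herc3, Dlk1, Rian, H13, Mcts2 and Cdh15 were overlapped by none.

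**Figure D4:**
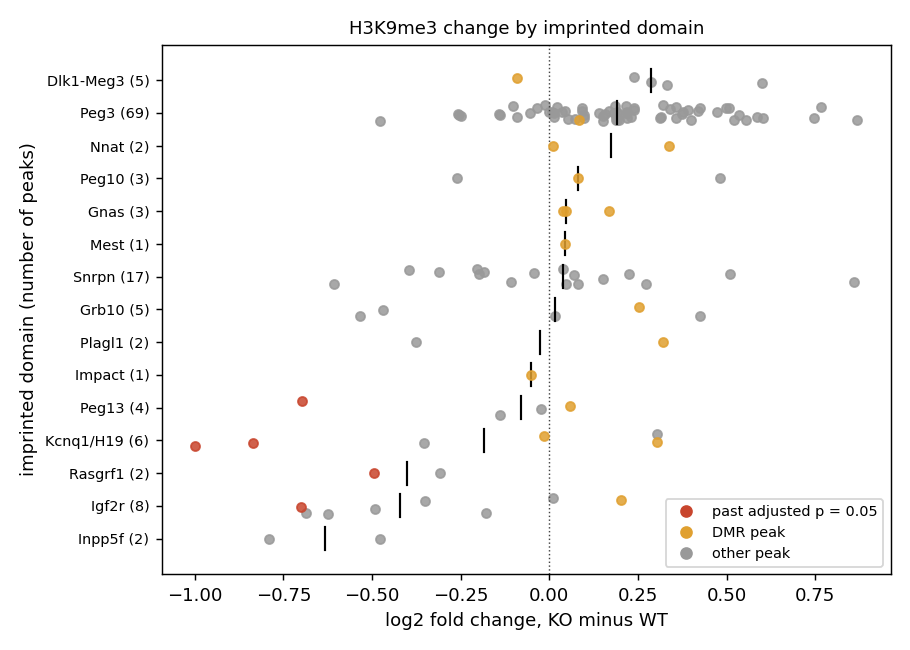
Log2 fold change (KO minus WT) of the 130 H3K9me3 peaks by imprinted domain, with the number of peaks in brackets and a black line at the median. DMR peaks (orange) lie between -0.09 and 0.34, the 5 called peaks (red) at or below -0.49, and most of the Peg3 domain above 0.

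H3K9me2, the dimethyl mark, was looked up in the same genes. There were 37 regions over 15 of the 45 genes, 562.2 kb in all, and 0 of them passed edgeR's quasi-likelihood test in either direction, against 0.00212% of all 47065 regions (1 region). One region had an unadjusted p under 0.05, and DESeq2 called 0 too. That region, at chr15:72828601-72829650 in Trappc9, had the largest change, 0.68 ± 0.26 (SE; edgeR adjusted p = 1), on 31, 33 and 29 reads in WT and 60, 34 and 114 in KO. Over the 37, the median change was -0.013, against -0.002 over all regions. The longest were a region of 79500 bp that overlapped the 3′ part of Kcnk9 and lay mostly beyond it (-0.05 ± 0.06), and one of 67350 bp within Usp29 (-0.01 ± 0.06). DMR peaks mostly lay outside this mark. Of the 16, 1 (Peg3) overlapped an H3K9me2 region, whereas 40.7% of the CpG-island-like peaks elsewhere, 68.2% of all H3K9me3 peaks and 74 of the other 114 peaks of imprinted genes did.

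Further gene lists were read in the same way. These lists were chosen with earlier results of these data known, so their shares are descriptive only. Of 14 genes of imprint maintenance, 3 had peaks, 6 in all, and 4 of the 6 were lower in KO, against 2.46% of all peaks. Zfp445, which encodes the imprint-binding zinc-finger protein named above, had 3 of the 4. These 3 are neighbouring peaks at 1 gene in the same libraries, and so not separate observations. Its main peak (chr9:122851801-122862900), over exons of the gene, had 9.25, 9.29 and 9.45 in WT and 8.07, 8.70 and 8.43 in KO, a log2 change of -0.93 ± 0.09 (SE; limma adjusted p = 6.16e-10). It stood 1.11 over input in WT, and also passed DESeq2 (adjusted p = 0.000996), as did the peak at chr9:122847901-122851050. The third, at chr9:122866501-122868000, did not (DESeq2 adjusted p = 0.208). Cbx3, the gene of the H3K9me3 reader HP1γ, had a peak outside the gene (chr6:51487351-51489300) with a change of -1.05 ± 0.16 (limma adjusted p = 7.97e-06). The Hells peak changed by -0.18. These are levels of the mark at the genes, and expression was not measured here.

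Of 41 other imprinted genes, 20 had peaks, 244 in all, with a median change of 0.01, and 4 were lower and 2 higher, against 2.46% and 0.252% of all peaks. The lower ones were 2 intronic peaks of Slc22a2, a cation transporter gene in the Igf2r cluster (-1.57 ± 0.25 and -1.47 ± 0.20, limma adjusted p = 2.8e-05 and 1.24e-06), and 1 each in Klf14 (-1.20 ± 0.27) and Ago2 (-1.20 ± 0.28). The higher ones were in Sfmbt2 (0.48 ± 0.11, limma adjusted p = 0.00497) and Begain (0.57 ± 0.17, 0.049). In DESeq2 both Slc22a2 peaks passed, and Klf14, Ago2, Sfmbt2 and Begain did not (adjusted p = 0.0939, 0.0706, 0.129 and 0.482). Snhg14, the long transcript of the Snrpn cluster, had 119 peaks, none called.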

How the data were processed

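Per the study's methods and the labels, the authors trimmed paired-end reads with Trim Galore 0.4.4, mapped them to GRCm38 with Bowtie2 2.3.2, removed duplicates and called MACS peaks in SeqMonk once per mark, on all ChIP libraries against both inputs. A peak may thus be absent from some libraries. The deposited H3K9me3 values are log2 reads per peak, matched in distribution over the ChIP libraries but not the inputs. The deposited H3K9me2 signal is a mean read count per peak of a region, and was multiplied by the number of peaks. The authors' table of raw counts for 3 H3K9me2 peaks served as a check. Tables of the authors' own test stayed out.

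For H3K9me3, limma 3.58.1 was fitted (trend, genotype, all 212313 peaks) and for H3K9me2 sums edgeR 4.0.16 (quasi-likelihood, TMM, all 47065 regions), two-sided, with Benjamini-Hochberg adjustment and a threshold of 0.05. Reads per peak were recovered from the ranks of the log2 values, and 99.5% of values were returned within 0.002 on the log2 scale. They gave ChIP over input and alternative tests with edgeR and DESeq2 1.42.0. On simulated data with 200 peaks changed 2-fold, limma recovered 65.5%. The changed peaks were drawn from those with at least 20 reads on average, under 1 dispersion for all peaks. Recovery at smaller changes or fewer reads was not simulated. Genes and CpG came from GENCODE M21 and GRCm38. CpG-island-like meant a 500-base window with a GC share above 0.5 and observed over expected CpG above 0.6. Replicate numbers did not pair the H3K9me3 libraries. For H3K9me2 the same-number correlations were 0.184, 0.015 and 0.078, and those of differing numbers lay between -0.128 and 0.07. The genes, lists and the DMR rule were chosen with earlier results of these data known. Peaks were named if at a DMR, past the threshold, or among the 5 highest or 3 lowest over input in WT. H3K9me2 regions were named if past the threshold or with the largest change. Further peaks were named after their values were seen.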

Additional observations from a re-analysis of the deposited data

How the results depend on the processing

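No DMR peak of the 16 passed the threshold under any of the alternatives run (edgeR, DESeq2, at least 20 reads on average, overlapping rows only, the replicate block, each library left out), and 0 of the 37 H3K9me2 regions passed under theirs. The 5 lower H3K9me3 peaks were 5 with the replicate block, whose numbers did not pair the libraries (same-number correlations of -0.015, 0.009 and -0.014), and it changed no call of H3K9me2 either. They were 6 with edgeR, 0 with DESeq2 and 4 among overlapping rows. Leaving out 1 library gave between 1 (without WT1 or WT3) and 4 lower peaks (without KO3), and between 0 and 2 higher ones (without KO2). None of the 5 changed sign. Their adjusted p without 1 library ranged up to 0.278 (Trappc9, without WT1), and fewer libraries enter these fits. The median change over the 130 peaks ranged from 0.074 to 0.161.

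The values over input depend on the input. With the KO input the WT median fell from 0.002 to -0.162 over the 130 peaks and from 0.359 to 0.057 over the DMR peaks. Leaving out a WT library gave -0.041 to 0.01 and 0.27 to 0.434. Without the Nesp and Meg3 starts the DMR median was 0.34. With 1 input per genotype, and short peaks with few input reads, single values over input are imprecise.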
